A study of Mus musculus with 20 samples.

Results

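The regional contrast of the forebrain was measured in aged mice homozygous for an acetylation-mimic mutation of TDP-43, as the difference between 5 hippocampus and 6 neocortex libraries of total RNA, which are 11 of the 20 libraries deposited. The members of the comparison were all libraries whose labels give the genotype TDP43-KQ, called KQ below (TDP-43 KQ/KQ), and every gene that was not listed at 0 throughout was considered. The remaining 9 libraries (4 hippocampus, 5 neocortex) came from TDP43-WT mice, called WT (TDP-43 wt), and served only to show where the contrast between the regions differed between genotypes. All mice were 18 months old. The hippocampus of KQ mice was represented by 3 females and 2 males and the neocortex by 3 females and 3 males, against 3 females and 1 male and 3 females and 2 males of WT. The mutation puts a glutamine in place of an acetylated lysine in the endogenous Tardbp gene on a C57BL/6J background, so it is present in every cell of the animal. The mice descend from a CRISPR-edited founder line that was kept as heterozygotes, and the WT mice carry the unedited gene. The tissue was whole dissected hippocampus or neocortex, frozen and pulverised, and not sorted cells.

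The hippocampus and neocortex arise from neighbouring parts of the embryonic cortical sheet. The hippocampus is built of dentate granule cells and of pyramidal cells of fields CA1, CA2 and CA3, each with its own set of genes, whereas the neocortex is built of layers whose neurons are set apart by transcription factors such as Cux2, Rorb, Fezf2 and Foxp2. TDP-43, the product of Tardbp, is an RNA-binding protein that controls splicing and stability of many neuronal transcripts and lowers its own mRNA through a feedback on its transcript, and both regions are affected in frontotemporal lobar degeneration with TDP-43 inclusions.

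Values were log2-like expression estimates with sex and litter removed by the authors and with the neocortex KQ mean set to 0 for every gene. A value therefore states how far a library lies above or below that mean, on a log2 scale, and cannot be compared between genes as a level. A region difference is the hippocampus mean minus the neocortex mean and is positive for genes higher in the hippocampus. Of 24528 genes, 4383 were at 0 in all libraries and 2282 more were left out because their values sat at a floor in at least 1 region, which left 17863 for the tests. Medians over genes differed from 0 by at most 0.0139 in any library. Because no counts were in the table, the depth behind the values is unknown, and the errors below reflect the spread between libraries alone. The labels do not tie libraries to mice, and the female libraries of the regions share genotype, number and litter, so p-values that take libraries as independent may not be those of independent animals. The KQ females numbered 2 were the only libraries of litter 1, and after the joint removal of litter their deviations from the group means were exact mirror images in the regions (correlation -1). Their own values are thus uninformative apart from the difference between them, and results that turn on them are given with and without both. A library labelled neocortex WT male 1 was alone in litter 2 and had no weight in any contrast.

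Tardbp itself (chr4:148612382-148627084, GRCm38.p6), the mutated gene, separated the genotypes and not the regions. Its values in hippocampus KQ females 1 to 3 and males 1 and 2 were -0.16, 0.04, 0.02, 0.00 and 0.16, and in the neocortex the lowest, median and highest were -0.10, -0.03 and 0.13. The WT libraries lay from -1.03 to -0.62 in the hippocampus and from -1.07 to -0.90 in the neocortex, below every KQ library. Between the regions of KQ mice Tardbp differed by 0.011 and the libraries overlapped (two-sided permutation test over all 462 splits, p = 0.851, where the smallest possible p is 0.00433). This p is approximate, because sex and litter had been removed from the values and those of female 2 mirror each other.

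In KQ mice 6316 genes, 35.4% of those tested, differed between hippocampus and neocortex (limma, Benjamini-Hochberg adjusted p under 0.05). Of these, 3069 genes (17.2%) were higher in the hippocampus and 3247 (18.2%) were higher in the neocortex. Differences of at least 1 on the log2 scale were found in 279 genes (1.56%), 141 higher in the hippocampus and 138 higher in the neocortex. The hippocampus and neocortex libraries did not overlap in 4945 genes (27.7%). With each library centred on its median, the counts were 2850 and 3463.

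Of the 8 leading genes of the hippocampus whose libraries did not overlap with the neocortex, 5 were on the lists of dentate granule cells (Dsp, Lct and C1ql2) or CA1 cells (Fibcd1 and Gpr161). Lack of overlap was a condition for naming the leading genes of either region, so it is not separate evidence for them. The choroid plexus genes Ttr and Kl, given further on, had differences of similar size with overlapping libraries. Dsp, which encodes the desmosome protein desmoplakin and marks dentate granule cells, had values of 3.73, 2.74, 3.44, 3.25 and 3.86 in hippocampus females 1 to 3 and males 1 and 2, against -0.52, -0.022 and 0.66 as the lowest, median and highest in the neocortex. All 5 hippocampus libraries lay far above all 6 neocortex libraries, and the difference was 3.40 ± 0.22 (SE; adjusted p = 1.64e-08; 3.65 in WT). Fibcd1 (chr2:31813290-31846964), a receptor-like membrane protein that marks CA1, read 3.29, 2.99, 3.10, 3.02 and 3.31 in the hippocampus against -0.15, 0.00017 and 0.15 in the neocortex. The regions were wholly apart, and the difference of 3.14 ± 0.069 had the lowest adjusted p of the leading genes (4.92e-13; 3.03 in WT). Lct, a disaccharidase gene also used as a marker of dentate granule cells, read 2.86, 2.51, 2.59, 2.76 and 3.05 against -0.17, -0.033 and 0.24, with no overlap and a difference of 2.75 ± 0.095 (adjusted p = 2.35e-11; 3.19 in WT). Gpr161, an orphan receptor of the primary cilium, read 2.83, 2.68, 2.72, 2.49 and 2.72 in the hippocampus against -0.14, -0.0075 and 0.11 in the neocortex. Its difference was 2.69 ± 0.081 (adjusted p = 6.35e-12; 2.53 in WT). Shisa6, an auxiliary subunit of AMPA receptors, was higher by 2.66 ± 0.095 (adjusted p = 3.4e-11; 2.92 in WT), with hippocampus values from 2.49 to 2.84 and neocortex values from -0.21 to 0.18. C1ql2 (chr1:120340582-120343174), a secreted C1q-like protein of mossy fibre synapses, read 2.32, 1.80, 2.40, 2.48 and 2.52 in the hippocampus against -0.21, -0.086 and 0.51 in the neocortex. The regions did not overlap, female 2 was the lowest hippocampus library and the highest neocortex library, and the difference was 2.30 ± 0.14 (adjusted p = 1.06e-08; 3.00 in WT). Pcdh20, a protocadherin, and Slc9a4, a sodium-hydrogen exchanger, followed with differences of 2.24 and 2.19 (2.26 and 2.18 in WT).

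**Figure D1:**
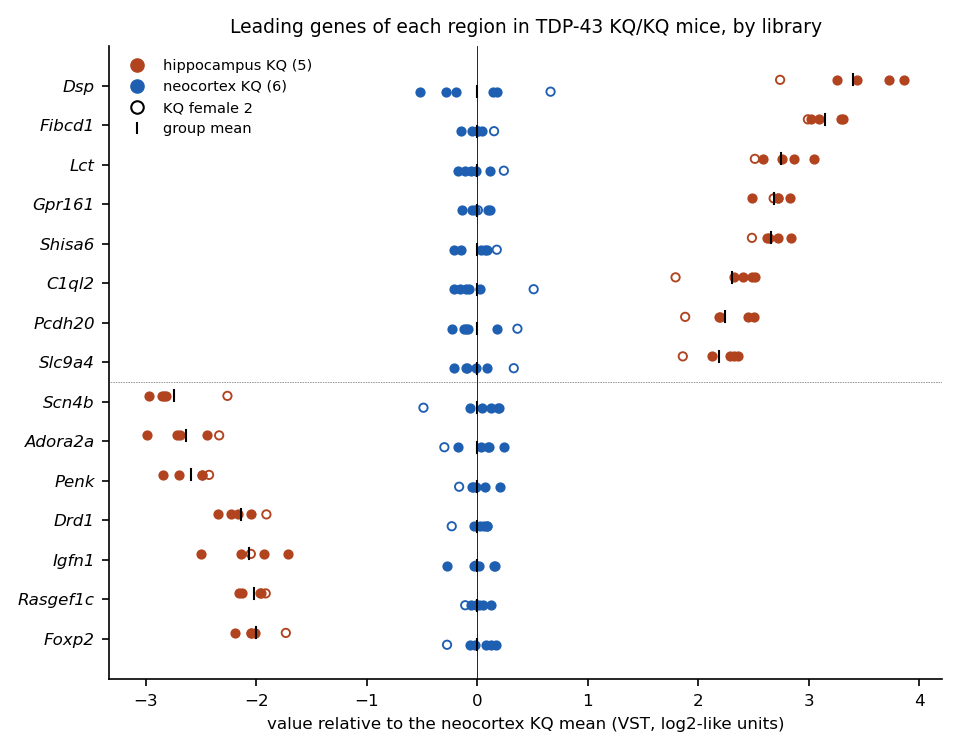
Log2-like values (centred on the neocortex KQ mean of each gene) of the leading genes of the hippocampus and of the neocortex in KQ mice, with 1 point for each of 5 hippocampus and 6 neocortex libraries. Open circles are the libraries of female 2. In each gene shown the points of the regions do not overlap, which was a condition for naming it.

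Among the lists of cell type markers, that of dentate granule cells had 10 of 15 members higher in the hippocampus and 2 higher in the neocortex, with a median difference of 0.90 (0.96 in WT). The shares called in these directions among all genes were 17.2% and 18.2%, here and for the lists that follow. Prox1, the transcription factor that sets granule cell identity, read 1.999, 1.46, 1.99, 1.71 and 1.94 in the hippocampus against -0.22, -0.062 and 0.36 in the neocortex. The libraries stood clearly apart, and the difference was 1.82 ± 0.12 (adjusted p = 1.76e-08; 1.97 in WT). The members higher in the neocortex were Pdzd2, a PDZ scaffold, at -0.65, and Plk5, a polo-like kinase, at -0.53. Of 12 CA1 genes, 11 were higher in the hippocampus (9 without female 2) and 1 in the neocortex (median 1.26, 1.13 in WT). The CA2 list had 6 of 9 members higher in the hippocampus (5 without female 2) and none higher in the neocortex. Among them was Sostdc1, also on the choroid plexus list, whose libraries overlapped (0.37 to 2.82 in the hippocampus, -0.52 to 1.17 in the neocortex). The adhesion protein gene Amigo2 differed by 0.83 ± 0.12 (adjusted p = 4.61e-05). The CA3 list was mixed, with 5 of 11 higher in the hippocampus and 2 higher in the neocortex. Within it Homer3, a postsynaptic scaffold, differed by 1.58 ± 0.079 and Nnat, a small membrane proteolipid, by 1.16 ± 0.10 (adjusted p = 1.03e-09 and 4.07e-07), whereas Coch, an extracellular matrix protein known from the inner ear, differed by -1.36 ± 0.15 (adjusted p = 5.03e-06). Mossy cell and hilus genes were called in both directions, 3 of 10 each way. The receptor genes Calcrl and Glp1r were higher in the hippocampus by 0.56 ± 0.073 and 0.62 ± 0.14 (adjusted p = 2.56e-05 and 0.00249). In bulk tissue such differences cannot tell fewer cells of a type from less RNA per cell.

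Promoters, the 250 bases before to 50 after a RefSeq start in GRCm38.p6, were available for 13591 of the genes tested and are shown for a gene from each side, because an E-box, the short motif of basic helix-loop-helix factors such as the Neurod family, was in the windows of a larger share of genes with a large contrast than of all genes. The windows shown were chosen among those that hold the motif. A second listed start of Gpr161 (chr1:165302373-165302672) did not hold it. Neither did the windows of the leading genes Dsp, Fibcd1, Lct, C1ql2, Pcdh20, Scn4b, Drd1, Igfn1 and Rasgef1c. Each window shown is that of a listed start, and the capitals mark the motif, which reads CAGATG on the opposite strand:
Gpr161 (chr1:165295516-165295815, plus strand): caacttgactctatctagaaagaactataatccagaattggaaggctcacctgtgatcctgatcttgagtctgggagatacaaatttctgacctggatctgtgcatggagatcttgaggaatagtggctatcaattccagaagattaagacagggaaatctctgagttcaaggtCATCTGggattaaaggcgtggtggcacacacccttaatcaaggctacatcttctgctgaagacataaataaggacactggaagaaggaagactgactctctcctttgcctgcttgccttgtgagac
Kcnh5 (chr12:75177283-75177582, minus strand): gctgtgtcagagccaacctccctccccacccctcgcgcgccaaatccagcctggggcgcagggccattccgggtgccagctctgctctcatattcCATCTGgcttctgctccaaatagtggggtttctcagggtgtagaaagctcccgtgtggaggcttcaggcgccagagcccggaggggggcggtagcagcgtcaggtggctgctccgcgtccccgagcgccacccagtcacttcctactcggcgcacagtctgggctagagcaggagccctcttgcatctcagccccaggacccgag

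For all 17863 genes CAGATG, searched on both strands at any listed start, was in the window of 2051 of 13591 genes (15.1%). Of genes with a contrast of at least 1 averaged over the genotypes, it was in 24 of 94 (25.5%) on the hippocampus side and 20 of 93 (21.5%) on the neocortex side. The homeodomain core TAATTA was in 3 of 94 (3.19%) and 9 of 93 (9.68%), against 535 genes (3.94%) in all, and the cyclic AMP response element TGACGTCA in 1 (1.06%) and 2 (2.15%), against 430 (3.16%). The motifs do not overlap each other in sequence, and a match describes the letters of the window and not a bound site.

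In the neocortex the largest differences belonged to genes of striatal projection neurons, and genes of cortical layers came next. Scn4b, a sodium channel beta subunit, read -2.97, -2.26, -2.86, -2.84 and -2.82 in the hippocampus against -0.49, 0.084 and 0.19 in the neocortex (-2.75 ± 0.14, adjusted p = 1.48e-09; -2.78 in WT), with the regions far apart in every library. Penk (chr4:4133536-4138815), the precursor of enkephalin peptides, read -2.50, -2.43, -2.85, -2.70 and -2.50 against -0.16, -0.028 and 0.20. It separated the regions fully, by -2.59 ± 0.11 (adjusted p = 2.29e-10; -3.23 in WT). Adora2a, the adenosine receptor of indirect pathway neurons, and Drd1, the dopamine receptor of direct pathway neurons, differed by -2.64 and -2.14 (-3.07 and -2.46 in WT). All 19 striatal genes were higher in the neocortex, beside 18.2% of all genes, and their median was -1.52 (-1.82 in WT). The mean over this list ran from -0.14 to 0.10 in neocortex KQ libraries and from 0.062 to 0.43 in neocortex WT libraries, against -1.71 to -1.45 and -1.65 to -1.52 in the hippocampus. Striatal transcripts are also found at low level in cortical neurons, and how much of this list came from tissue at the border of the dissection was not tested.

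Upper layer genes were higher in the neocortex for 9 of 13 members and higher in the hippocampus for 2, with a median of -1.04 (-0.90 in WT). The latter were Scnn1a, a sodium channel subunit of layer 4 (0.37 ± 0.075, adjusted p = 0.00124), and Wfs1, the endoplasmic reticulum protein wolframin that also marks CA1 (0.40 ± 0.15, adjusted p = 0.0478), whose call was lost without female 2 (adjusted p = 0.222). Lamp5, a lysosome-associated membrane protein of upper layers and some interneurons, read -1.99, -1.79, -2.03, -1.84 and -1.88 in the hippocampus against -0.12, -0.029 and 0.21 in the neocortex. No library of either region came near the other, and the difference was -1.91 ± 0.078 (adjusted p = 1.41e-10; -1.88 in WT). Kcnh5, a voltage-gated potassium channel gene whose promoter is shown above, differed by -1.91 ± 0.062 (adjusted p = 1.41e-11; -1.64 in WT). Layer 6 genes were higher in the neocortex for 10 of 15 members and higher in the hippocampus for 3. Foxp2, a transcription factor of corticothalamic neurons, read -2.01, -1.73, -2.05, -2.05 and -2.19 against -0.27, 0.028 and 0.16, a difference of -2.01 ± 0.11 without overlap (adjusted p = 2.35e-09; -2.12 in WT). Layer 5 genes went the other way more often, with 8 of 15 higher in the hippocampus and 5 higher in the neocortex. Among all genes 17.2% were called higher in the hippocampus and 18.2% higher in the neocortex. Crym, a thyroid hormone binding protein, was higher in the hippocampus by 1.13 ± 0.058 (adjusted p = 1.4e-09), whereas Myl4, a myosin light chain, was lower by -1.42 ± 0.066 (adjusted p = 4.54e-10). Igfn1, a muscle-associated immunoglobulin domain protein, and Rasgef1c, a guanine nucleotide exchange factor, were on no list and completed the leading neocortex genes at -2.07 and -2.03 (-1.80 and -1.96 in WT).

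Of 38 transcription factors that pattern the forebrain, 21 were higher in the hippocampus and 14 in the neocortex. Lhx9, a LIM homeodomain factor, was higher in the hippocampus by 1.57 ± 0.13 (adjusted p = 3.06e-07), and Mef2c, an activity-regulated factor of cortical neurons, was lower by -1.70 ± 0.12 (adjusted p = 2.73e-08). Genes of GABA neurons were higher in the neocortex in 15 of 29 and in the hippocampus in 5. Vip and Npy, neuropeptides of interneurons, differed by -0.92 ± 0.082 and -0.87 ± 0.043 (adjusted p = 4.93e-07 and 7.55e-10), against 0.89 ± 0.088 for Nos1, the neuronal nitric oxide synthase (adjusted p = 1.49e-06). Thalamic and habenular genes, which would mark tissue beneath the hippocampus, were called in 3 of 18 toward the hippocampus (6 without female 2) and 7 toward the neocortex. Of all genes 17.2% and 18.2% were called in these directions.

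Ventricle lining genes were higher in the hippocampus dissections. Of 18 choroid plexus genes 17 were called, beside 17.2% of all genes in this direction. Their median was 1.66 (0.63 in WT), and the spread between libraries was wide. Kl, encoding the hormone co-receptor klotho, read 4.43, 1.16, 2.42, 2.97 and 3.21 in the hippocampus against -0.98, -0.25 and 1.68 in the neocortex, so that the regions overlapped through female 2 (2.84 ± 0.62, adjusted p = 0.00224). Ttr, the transthyretin gene that defines this epithelium, had the largest difference of the list, 3.63 ± 1.45, which was not called (adjusted p = 0.0651; 1.71 in WT). The list mean ran from 0.26 to 3.05 in the hippocampus of KQ and from -0.71 to 1.42 in the neocortex. The number of choroid plexus genes called fell to between 7 and 10 when neocortex KQ female 1, male 2 or male 3, or hippocampus female 1, male 1 or male 2, was left out, and was 18 without both libraries of female 2. All 12 ependymal genes were also called higher in the hippocampus, led by the cilium genes Ak7 (0.78 ± 0.14, adjusted p = 0.000512) and Foxj1 (0.65 ± 0.15, adjusted p = 0.00307). How far the choroid plexus carried in the dissection entered other hippocampus differences was not tested.

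Among the glial lists, that of astrocytes was called toward the hippocampus in the largest share. The others were nearer to the share of all genes or below it. Of 20 astrocyte genes 12 were higher in the hippocampus (10 without female 2) and none in the neocortex. Gfap, the intermediate filament of astrocytes, read 1.336, 1.24, 1.38, 1.52 and 1.26 against -0.29, 0.085 and 0.17. All 5 hippocampus libraries were higher, by 1.35 ± 0.10 (adjusted p = 8.32e-08; 1.26 in WT). Of the other glial lists, 5 of 25 oligodendrocyte genes (1 without neocortex KQ female 3 and 3 without female 1 of either region or hippocampus male 1), 3 of 12 precursor genes and 1 of 22 microglial genes were called higher in the hippocampus, beside 17.2% of all genes. The precursor gene called higher in the neocortex was Lhfpl3, which encodes a tetraspan membrane protein (-0.33 ± 0.087, adjusted p = 0.00766). The microglial gene called was Lpl, the lipoprotein lipase (0.31 ± 0.058, adjusted p = 0.000656). Of 15 endothelial genes 1 was called (3 without female 2 of either region). The fibroblast and mural cell lists had 4 of 17 (7 without hippocampus KQ female 3) and 4 of 13 called toward the hippocampus, among them Dcn (1.85 ± 0.18, adjusted p = 1.36e-06), a proteoglycan also made by CA1 cells, and the smooth muscle actin gene Acta2 (0.64 ± 0.13, adjusted p = 0.00162).

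**Figure D2:**
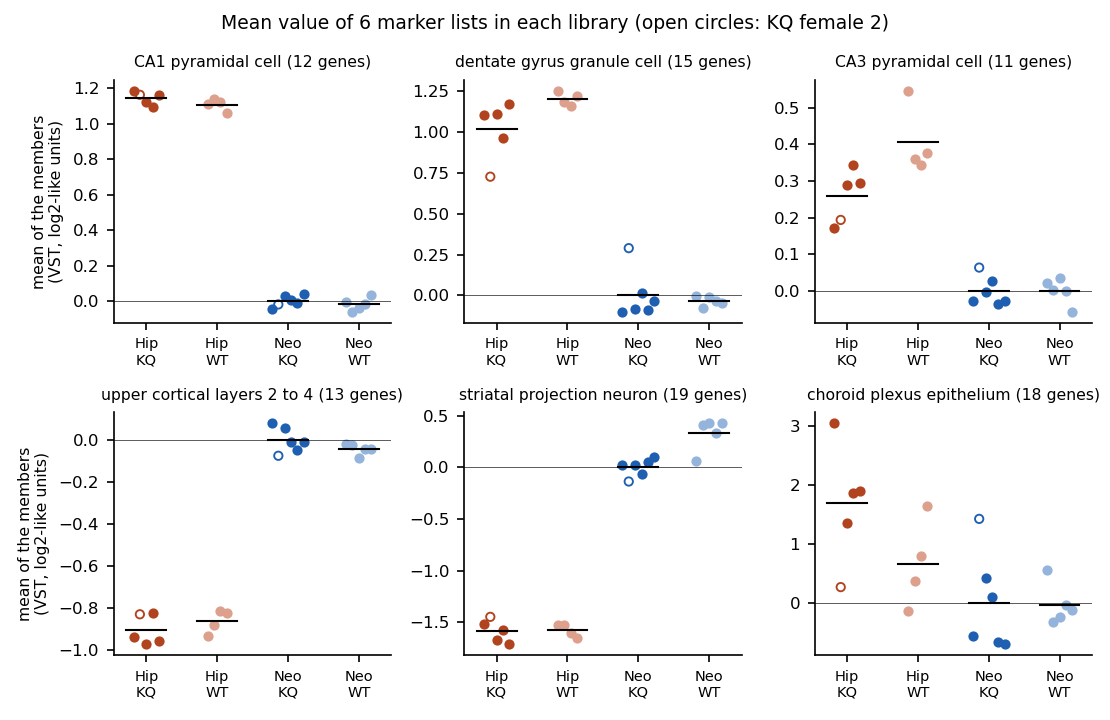
Mean log2-like value of each library over 6 marker lists, with the 4 groups of region and genotype on the horizontal axis and open circles for the libraries of KQ female 2. The striatal list was lowest in the hippocampus of both genotypes, and the choroid plexus list scattered from 0.26 to 3.05 within hippocampus KQ libraries.

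Receptors and channels divided between the regions by subunit. The shares called among all genes were 17.2% higher in the hippocampus and 18.2% higher in the neocortex. Gria1, an AMPA receptor subunit of hippocampal pyramidal cells, read 1.25, 1.15, 1.32, 1.13 and 1.26 in the hippocampus against -0.11, 0.026 and 0.081 in the neocortex. The difference was 1.22 ± 0.054 with the libraries wholly apart (adjusted p = 3.02e-10; 1.28 in WT). In all, 11 of 39 glutamate receptor genes were higher in the hippocampus and 16 higher in the neocortex (9 and 15 without female 2). Among the latter was Nptx2, a secreted pentraxin that clusters AMPA receptors (-1.10 ± 0.080, adjusted p = 5.21e-08). Among 14 GABA-A receptor subunits, 4 were higher in the hippocampus and 6 in the neocortex. Gabra5, the extrasynaptic subunit typical of the hippocampus, differed by 1.43 ± 0.065 (adjusted p = 4.08e-10; 1.44 in WT), with hippocampus values of 1.40, 1.41, 1.45, 1.49 and 1.39 and neocortex values from -0.14 to 0.14. Gabrd, the delta subunit of tonic inhibition, differed by -1.44 ± 0.055 (adjusted p = 6.62e-11; -1.34 in WT), and its hippocampus values of -1.41, -1.38, -1.59, -1.42 and -1.43 lay below all in the neocortex. Potassium channel genes leaned to the neocortex, with 19 of 34 higher there and 4 higher in the hippocampus, the largest of which was Kcng2 (1.03 ± 0.096, adjusted p = 7.82e-07). Genes of calcium and cyclic AMP signalling were called in 10 of 33 toward the hippocampus (8 without female 2) and 14 toward the neocortex. Hpca, the calcium sensor hippocalcin, was higher in the hippocampus by 0.81 ± 0.053 (adjusted p = 1.73e-08), and Pde1b, a calmodulin-dependent phosphodiesterase rich in the striatum, was lower by -1.27 ± 0.083 (adjusted p = 1.68e-08).

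Of 34 receptors for corticosteroids, peptides and monoamines, 12 were higher in the hippocampus and 10 in the neocortex. Beside these and the counts below stand 17.2% and 18.2% of all genes. Npy2r, a presynaptic receptor of neuropeptide Y, read 1.71, 1.63, 2.01, 1.72 and 2.18 against -0.29, 0.023 and 0.22 (1.85 ± 0.11, adjusted p = 9.31e-09; 2.12 in WT). Cckbr, the brain receptor of cholecystokinin, was lower in the hippocampus by -1.51 ± 0.088 (adjusted p = 5.44e-09; -1.41 in WT). Guidance and adhesion genes were called in 19 of 39 toward the hippocampus and 13 toward the neocortex. Nrp1, a receptor of class 3 semaphorins, differed by 1.57 ± 0.071 (adjusted p = 3.3e-10), and Sema3a, a ligand of that class, by -1.62 ± 0.11 (adjusted p = 3.39e-08). Wnt pathway genes were called in 8 and 11 of 30 (6 and 10 without female 2), with the antagonist-related Dkkl1 at -1.67 ± 0.11 (adjusted p = 1.12e-08). Immediate early genes, which report recent neuronal activity, were higher in the neocortex in 14 of 20 and in the hippocampus in 4. Egr1, a zinc finger factor, read -1.50, -1.06, -1.25, -1.05 and -1.47 against -0.21, -0.021 and 0.39, a difference of -1.26 ± 0.14 without overlap (adjusted p = 3.96e-06; -1.33 in WT). The orphan nuclear receptor Nr4a3 went the other way, with 1.00, 0.95, 1.20, 1.24 and 0.97 in the hippocampus (1.07 ± 0.11, adjusted p = 2.91e-06; 1.39 in WT).

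Lists nearer to disease and plasticity were called in both directions. Of 28 genes of inherited ALS and frontotemporal dementia, 4 were higher in the hippocampus and 5 in the neocortex (3 without female 1 of either region or hippocampus male 2). In all libraries both shares were near the 17.2% and 18.2% called among all genes. Kif5a, a kinesin motor of axonal transport, was lower in the hippocampus by -0.44 ± 0.076 (adjusted p = 0.000323), and Pfn1, the actin regulator profilin, was higher by 0.23 ± 0.066 (adjusted p = 0.0128). Neurogenesis genes were called in 7 and 4 of 23, and Dcx, the microtubule protein of migrating neuroblasts, was lower in the hippocampus (-0.60 ± 0.079, adjusted p = 2.81e-05) as was Stmn1 (-1.01 ± 0.083, adjusted p = 1.95e-07), another microtubule regulator. Perineuronal net genes were called in 4 and 5 of 15. Pvalb, the calcium buffer of the neurons these nets enclose, was lower in the hippocampus by -0.70 ± 0.088 (adjusted p = 1.67e-05). Of 6 histone and long noncoding genes none was called higher in the hippocampus and 1 higher in the neocortex. This was Hist1h1c, a linker histone (-0.32 ± 0.12, adjusted p = 0.0431), and its call was lost without female 2 (-0.25, adjusted p = 0.148).

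**Figure D3:**
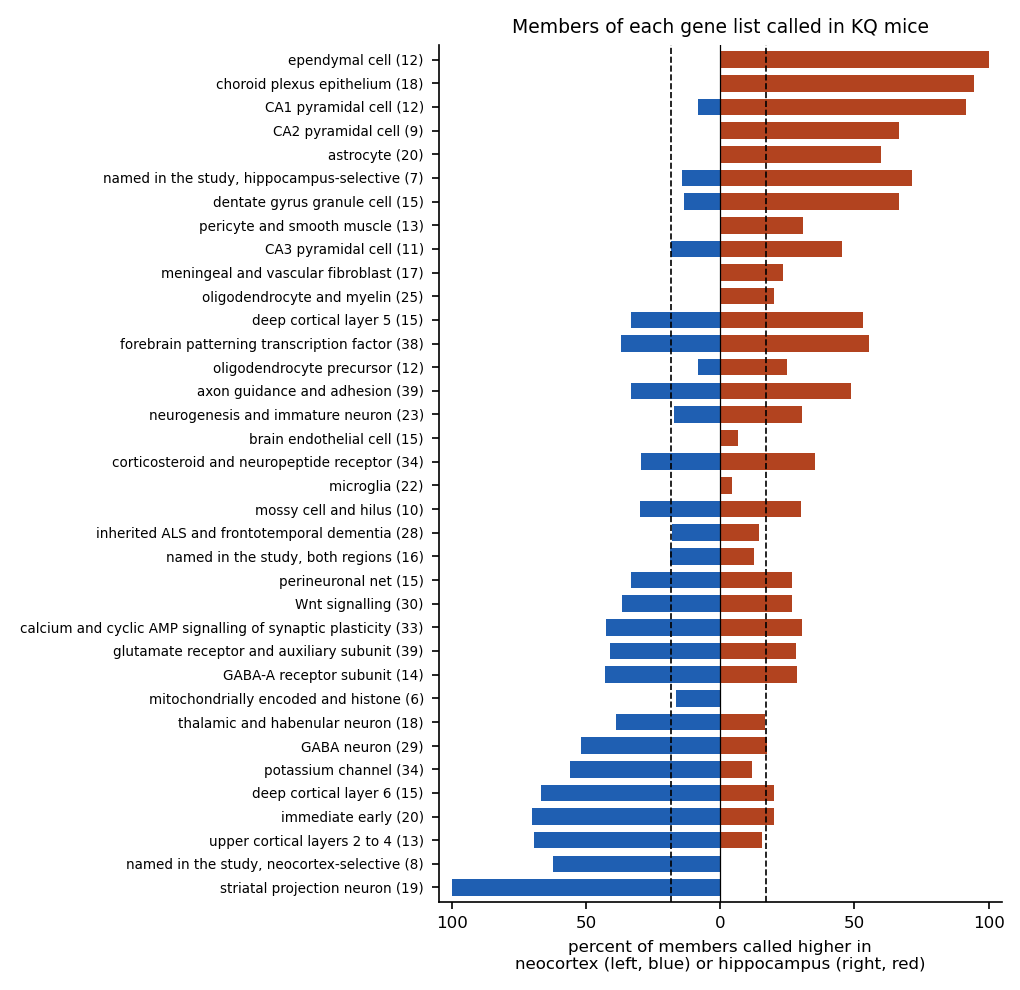
Percent of the tested members of each gene list called higher in the hippocampus (bars to the right) or higher in the neocortex (bars to the left) in KQ mice, with dashed lines at the 17.2% and 18.2% of all genes. Choroid plexus, ependymal and CA1 lists reach far to the hippocampus side and the striatal list to the neocortex side.

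The contrast between the regions was nearly the same in both genotypes. Over the 17863 genes the differences in KQ and WT had a Pearson correlation of 0.910 across genes, which are not independent replicates, and an SD of 0.296 in each genotype. The genotypes have no library in common but were fitted with shared sex and litter terms. In WT 5041 genes were called. The change of the region difference between genotypes, tested as an interaction in limma, passed the adjusted threshold for no gene (0%), and 1041 genes (5.83%) had an unadjusted p under 0.05. Over the alternative fits and the omission of each library, the adjusted count was above 0 only when neither sex nor litter was fitted, and was then 69. Contrasts were smaller in KQ for 9059 genes (50.7%).

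**Figure D4:**
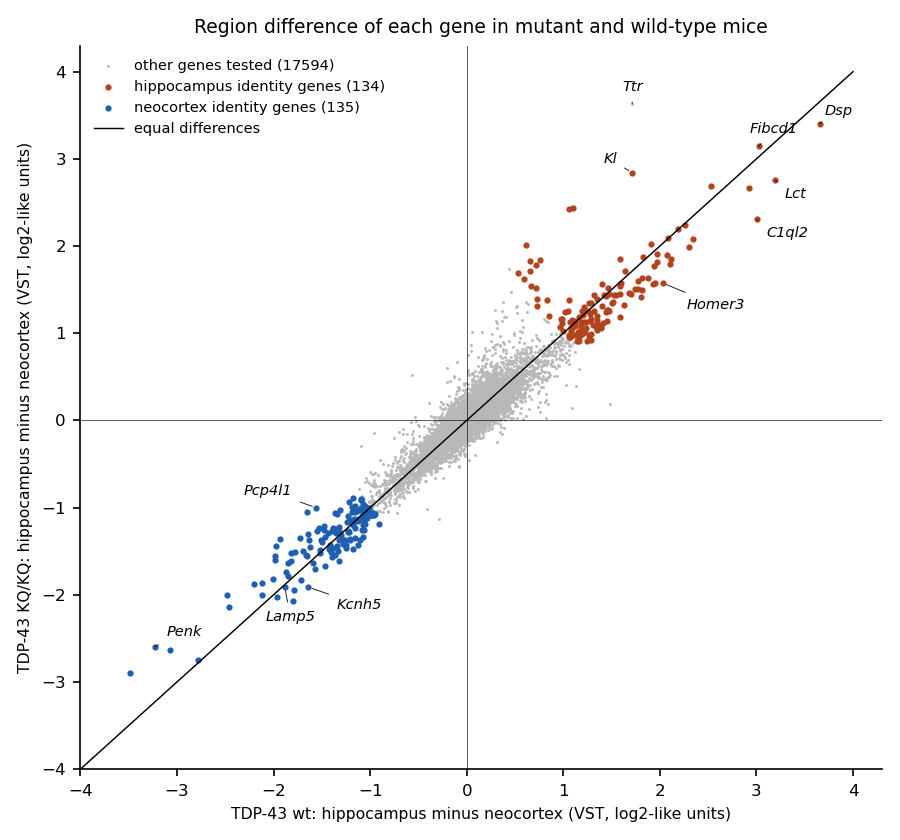
Region difference (hippocampus minus neocortex, log2-like) of 17863 genes in WT against KQ mice, with the line of equality. Coloured points are the 134 and 135 genes with a contrast of at least 1, averaged over the genotypes, on the hippocampus and neocortex side, and they lie close to the line.

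Region-identity genes were defined as the 269 genes whose difference, averaged over the genotypes with equal weight, was at least 1 in size: 134 on the hippocampus side and 135 on the neocortex side. The WT difference had the larger SE (for Kl 0.71 against 0.62 in KQ), so this choice can lean toward smaller contrasts in KQ. Their differences correlated at 0.977 across genes between the genotypes. Genes chosen for a large average difference correlate highly through that choice, so this value does not measure how alike the genotypes are. The contrast was smaller in KQ for 87 of the 134 hippocampus genes (64.9%) and for 72 of the 135 neocortex genes (53.3%), beside 50.7% of all genes. Without the genes of the choroid plexus and striatal lists, which are known from tissue adjoining the regions but whose source in these libraries was not tested, it was smaller for 87 of 123 hippocampus genes (70.7%), with a median over genes of 91.3% of the contrast in WT, and for 56 of 119 neocortex genes (47.1%), with a median of 100.8%. This lean of the hippocampus side rested partly on 1 litter: without both libraries of female 2 the share was 61.8%, beside 49.5% of all genes, and genes with an unadjusted p under 0.05 were 10 smaller and 9 larger, compared with 17 and 2 in all libraries. It ran from 59.3% without hippocampus KQ male 1 to 75.6% without neocortex female 3. Within litter and sex, the median difference of the 123 genes in KQ was 1.10 in females of litter 1, 1.41 in those of litter 5, 1.36 in those of litter 6 and 1.26 in males of litter 5. In WT it was 1.39, 1.43 and 1.40 for females of litters 4 and 6 and males of litter 5, so the females of litter 5 lay within the range of WT, and litter 1 was furthest below it.

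Of the identity genes whose contrast was smaller in KQ with the lowest p, 4 belonged to the hippocampus side. The identity genes named here and below, with a smaller or larger contrast, were chosen by that p from the same libraries. Lack of overlap of their littermate differences is thus not separate evidence. Cabp7 (chr11:4736892-4747179), a calcium-binding protein of the Golgi, differed between regions by 1.73, 1.83, 1.81 and 1.87 within the 4 sets of KQ littermates of the same sex and by 2.07, 2.13 and 2.07 within the 3 of WT. The genotypes did not overlap, and the contrast was 1.80 ± 0.051 against 2.10 (change -0.30 ± 0.078, adjusted p = 0.718). Homer3 (chr8:70282880-70294361) differed by 1.26, 1.78, 1.54 and 1.68 against 1.82, 2.08 and 2.15, again without overlap, so its contrast of 1.58 compared with 2.03 (change -0.45 ± 0.12, adjusted p = 0.718), and the change was -0.38 without female 2. Homer3 is also named by the study, from these samples, as lower in the hippocampus of KQ. Wbscr17, a glycosyltransferase of mucin-type sugars, had 1.14 against 1.46 with the littermate differences apart, and Nr3c2, the mineralocorticoid receptor that is rich in the hippocampus, had 1.46 ± 0.039 against 1.68 with overlap (adjusted p of the change 0.718 and 0.734). C1ql2 and Lct, the dentate granule cell genes above, changed by -0.70 and -0.44 (adjusted p = 0.764 and 0.783), and the former by -0.45 without female 2. The dentate list as a whole had a negative change in 14 of 15 members with a median of -0.21, but without female 2 it was 10 of 15 with a median of -0.050.

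On the neocortex side Pcp4l1 (chr1:171173264-171196268), a small calmodulin-binding protein, had the lowest p. Its littermate differences were -1.33, -1.02, -0.65 and -0.98 in KQ and -1.64, -1.59 and -1.42 in WT, without overlap, and its contrast was -1.002 ± 0.082 against -1.56 (change 0.56 ± 0.12, adjusted p = 0.718). Sh3rf2, a ubiquitin ligase scaffold, had -1.45 against -1.98, and Six3, a homeobox factor of striatal neurons, -1.05 against -1.65, both with the littermate differences apart. Penk had -2.59 against -3.23 with overlap (change 0.63 ± 0.17, adjusted p = 0.718). Six3 and Penk are on the striatal list, in which the change was positive, that is, toward a smaller contrast, in 19 of 19 members with a median of 0.32. Leaving out female 2 gave 18 of 19 and 0.21, and leaving out neocortex WT female 3 also gave 0.21. Within litter and sex the list median overlapped between genotypes, at -1.29, -1.85, -1.50 and -1.75 in KQ and -1.93, -1.72 and -2.07 in WT. Of the 18 neocortex genes with a smaller contrast at an unadjusted p under 0.05, 7 were striatal genes. The neocortex libraries of WT had the higher mean over the striatal list, as given above, and its part in these changes was not tested.

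At an unadjusted p under 0.05, the contrast was larger in KQ for 6 identity genes and smaller for 35, beside 505 and 536 of all genes. These counts rested in part on female 2, without whose libraries the 123 hippocampus genes above had 9 larger and 10 smaller. Man1a, an alpha-mannosidase of the Golgi and a CA1 marker, read 1.13, 1.19, 1.17, 1.22 and 1.10 in hippocampus libraries against neocortex values from -0.030 to 0.038. Its contrast was 1.16 ± 0.041 compared with 0.97 in WT, with littermate differences of 1.22, 1.15, 1.15 and 1.15 against 1.14, 0.90 and 0.94 that did not overlap (adjusted p of the change 0.783). Arhgap12, a GTPase activating protein, had 1.25 against 1.05, and Medag, a regulator of fat cell differentiation, -1.50 against -1.33, both with littermate differences apart (adjusted p = 0.815 and 0.8287). The potassium channel gene Kcnh5 had -1.91 against -1.64, the kinase gene Stk32c -1.34 against -1.08, and the calcium-binding protein gene Cabp1 -1.18 against -0.91, all with overlap (adjusted p = 0.793, 0.789 and 0.815). Otof, encoding otoferlin of upper layer neurons, had -1.42 against -1.13, and Cpne9, a copine, -1.48 against -1.18 (adjusted p = 0.8287 for each). Both had overlapping littermate differences, and neither was among the 6 genes with an unadjusted p under 0.05. Directions of change of these 8 genes and of the 8 with a smaller contrast were kept without female 2. In all, littermate differences of the genotypes did not overlap for 32 of the 269 identity genes, 28 of them smaller in KQ, beside 1617 of all genes (9.05%), of which 899 were smaller in KQ.

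**Figure D5:**
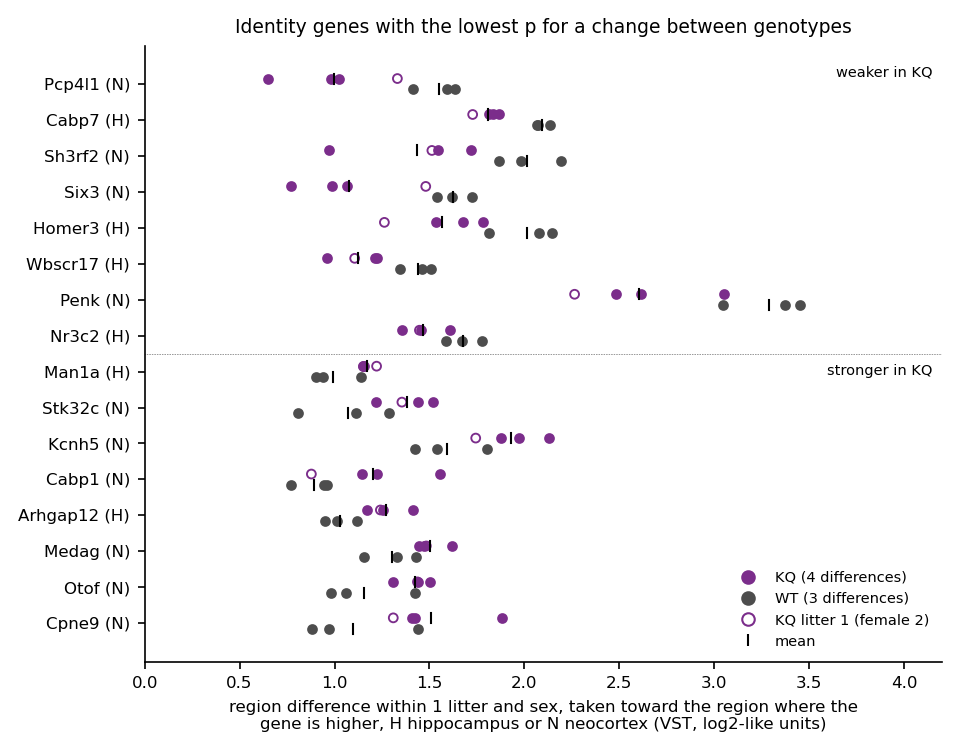
Region differences within litter and sex for the 16 identity genes with the lowest p for the change, 8 with a smaller and 8 with a larger contrast in KQ, oriented toward the region where the gene is higher (log2-like). Points are 4 differences of KQ and 3 of WT mice, and for Cabp7 and Pcp4l1 the points of the genotypes stand apart.

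Some genes with small contrasts had changes of similar size. Nptx1, a secreted pentraxin of excitatory synapses, was higher in the hippocampus of WT by 0.55, and in KQ it read -0.05, 0.01, 0.13, 0.13 and 0.20 in the hippocampus against -0.085 to 0.069 in the neocortex. The regions overlapped there, and the difference of 0.083 ± 0.081 was not called (adjusted p = 0.46; change -0.47 ± 0.12, adjusted p = 0.718). Neurod2, a helix-loop-helix factor of excitatory neurons, had 0.50 ± 0.070 against 0.91 (change -0.40 ± 0.11, adjusted p = 0.718), and Camk2b, the beta subunit of the plasticity kinase, 0.10 ± 0.037 against 0.36 (change -0.25 ± 0.055, adjusted p = 0.718). Synpo, the spine apparatus protein synaptopodin, was lower in the hippocampus by -0.55 ± 0.039 against -0.29 (change -0.26 ± 0.059, adjusted p = 0.718), with littermate differences of -0.54, -0.62, -0.58 and -0.52 against -0.22, -0.34 and -0.26. In Nptx1, Neurod2, Camk2b and Synpo alike the littermate differences of the genotypes did not overlap. These genes were named for the lowest p of the change on their lists, so this is not separate evidence. Nptx1 and Synpo are also named by the study, from these samples, as higher in the neocortex of KQ. The patterning factors, glutamate receptors, potassium channels and calcium and cyclic AMP genes had a negative change, that is, toward the neocortex, in 27 of 38, 32 of 39, 26 of 34 and 26 of 33 members, with medians of -0.14, -0.096, -0.12 and -0.083 beside -0.00044 over all genes. Of oligodendrocyte genes 23 of 25 had a negative change (median -0.12), and of fibroblast genes 17 of 17 a positive one (median 0.37). Positive changes were also found in 18 of 18 choroid plexus genes (median 1.05, and 1.70 without female 2), 12 of 12 ependymal genes (0.16, and 0.29 without female 2) and 13 of 15 endothelial genes (0.18), and the part of the choroid plexus in the changes of the other lists was not tested. None of these members passed the adjusted threshold, and members of a list share the same libraries, so they are not independent replicates. Within litter and sex the median of each of these lists overlapped between genotypes. For fibroblast genes it was 0.42, -0.27, 0.64 and 0.33 in KQ and -0.10, 0.080 and -0.39 in WT.

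Genes that the study names as altered by genotype, Homer3, Nptx1 and Synpo above among them, were chosen on these samples, so their changes are not independent evidence. For the neocortex the study names Gad1, Gad2, Abat and Gnb5 as lower in KQ, and Syt7, Synpo, Nptx1 and Spg11 as higher. For the hippocampus it names Homer3, Camk4, Nsmf and Cnih2 as lower, and F3, Plat and Cd59a as higher. The counts that follow are of region differences within KQ, which do not test those changes. Of 8 named for the neocortex, 5 were higher in the neocortex of KQ mice and none in the hippocampus. Gad1 and Gad2, the enzymes that make GABA, had -0.33 ± 0.056 and -0.31 ± 0.079 against -0.47 and -0.63 (adjusted p of the region difference 0.000273 and 0.00617). Of 7 named for the hippocampus, 5 were higher there and 1, the kinase gene Camk4, lower (-0.95 ± 0.066, adjusted p = 3.19e-08). Cnih2, an AMPA receptor chaperone, and Nsmf, a synapse to nucleus messenger, had 0.75 and 0.45 against 0.99 and 0.73 in WT (adjusted p of the change 0.789 and 0.718). Of 16 named for both regions, 2 were called higher in the hippocampus (0 without neocortex KQ female 3) and 3 higher in the neocortex. The shares among all genes were 17.2% and 18.2%. Among the 3 was the small GTPase gene Rnd2 (-0.52 ± 0.054, adjusted p = 2.23e-06).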

How the data were processed

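Total RNA of neocortex and hippocampus, depleted of ribosomal RNA, was sequenced as paired ends, from samples selected for RNA integrity. The tools were cutadapt for trimming, STAR 2.5.2b for alignment to mm10, Salmon for quantification and DESeq2 1.34.0 under R 4.1.0, per the submitters' processing notes and the study's methods. The deposited table holds log2-like values, which the authors made by variance-stabilizing the expression estimates in DESeq2 and taking out sex and litter with limma, over both regions jointly. Values run from -3.36 to 6.61 and hold no expression level or depth.

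Groups were taken from the sample labels. All 20 libraries were fitted with limma 3.58.1 in R 4.3.3 (statmod 1.5.0 for the random effect), with a mean for each group of region and genotype, and with sex and litter entered again, which left 11 residual degrees of freedom. The fitted region difference equals the difference of deposited group means within 4.81e-09. Contrasts were hippocampus minus neocortex in each genotype and the change between genotypes. P-values were adjusted after Benjamini and Hochberg over 17863 genes, after leaving out genes that were tied within 1e-06 over all 3 or more libraries of a sex and litter in either region, which marks a gene at its floor. Values are given with SE. Figures were drawn with matplotlib 3.10.9 in Python 3.11.15 (numpy 2.4.6). The fit was tested on simulated data.

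Genes, lists and alternatives were chosen with earlier results of these data known, and the lists came from general knowledge of cell type markers and pathways. Genes named were the 8 highest in each region without overlap of libraries, up to 2 called members of each list in each direction and the member with the lowest p for the change, the 8 identity genes with the lowest p on each side of the change, Tardbp and genes named by the study. Ttr was named after its values were seen. Predicted symbols were left out. Counts within litter and sex used 4 differences of KQ and 3 of WT. Promoters and coordinates are from RefSeq, GRCm38.p6. Some of the genes that met the rule are not reported here.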

Additional observations from a re-analysis of the deposited data

Results flagged for a closer look

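Among the leading genes, the identity genes with the lowest p for the change, and Tardbp (32 genes, 64 groups of KQ libraries), 6 groups held a library far from the others by Dixon's ratio of its gap to the range, where chance gives about 5% of groups. Of these, 3 were libraries of female 2, whose values mirror each other between the regions. C1ql2 stood at 1.80 in hippocampus female 2, with the others between 2.32 and 2.52, and at 0.51 in neocortex female 2, with the others between -0.21 and 0.027. Scn4b stood at -2.26 in hippocampus female 2, above the range of -2.97 to -2.82. Medag stood at -1.59 in hippocampus female 1, with the others between -1.49 and -1.46, and at -0.092 in neocortex male 3, with the others between -0.0076 and 0.036. Cpne9 stood at 0.26 in neocortex female 1, with the others between -0.083 and -0.0089.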

How the results depend on the processing

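The count of genes that differed between the regions of KQ mice, 6316, ran from 4978 to 6539 when each library was left out, and that of genes differing by at least 1 from 240 to 330. In the male libraries alone it was 3541 (1761 higher in the hippocampus, 1780 in the neocortex). With each library centred on its median, 2850 genes were higher in the hippocampus and 3463 in the neocortex. No change between genotypes passed in any fit except that with neither sex nor litter, with 69. Unadjusted p under 0.05 for the change was found in 723 to 1791 genes over the omissions, in 2275 with sex but not litter, in 1654 with separate sex and litter terms by region and in 1368 by differences within litter. The number of identity genes ran from 250 to 294, of which 71 to 104 on the hippocampus side and 63 to 85 on the neocortex side had a smaller contrast in KQ. With a size of at least 0.5, 1158 genes were identity genes, and 346 and 283 had a smaller contrast. With a size of at least 2 there were 20, and 7 and 8 had a smaller contrast. Why these values moved was not tested, beyond the smaller number of libraries or the other size.

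Same-numbered KQ libraries of the regions had deviations that correlated at -1, -0.69, -0.24, -0.20 and -0.16. The joint removal of litter by the authors forces the first of these and can push the others below 0, so they do not show whether the numbers pair the libraries, which the labels do not state. With the replicate number as a block, 7625 genes were called (3816 and 3809), none changed between genotypes at an adjusted p under 0.05 (1791 unadjusted), and 267 were identity genes, of which 91 and 75 had a smaller contrast. Treating the female mouse as a random effect (correlation 0.274) gave 7031 calls of a region difference and no call of a change. Of 165 named genes, calls of a region difference lost in the omission of a library concerned up to 10 genes at a time, as for Wfs1, Camk2b and Vcan. The change with separate sex and litter terms by region is the only value given from that fit, since its region difference depends on the reference litter, and the change was not run in male libraries alone, which hold 1 WT hippocampus. With those separate terms the change of 32 of the 165 named genes moved from that of the main fit, beside 8 in the female libraries alone. Precision is limited by the spread of 5 and 6 libraries, since depth is unknown.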
